A study of Homo sapiens with 8 samples.

Results

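RNA bound by the protein CTCF was listed over 9 small RNA loci: the gene of the 7SK RNA, 3 pseudogenes of 7SK and 5 pseudogenes of 5S ribosomal RNA. The copies were chosen by the peaks themselves, as the annotated 7SK and 5S copies that overlapped a peak of either list, so the presence of a peak and its values are a description of the choice and were not tested. They are 9 of 345 annotated genes that overlapped a listed peak, and 9 of 821 annotated 7SK and 5S copies. The data come from eCLIP, in which ultraviolet light links proteins to the RNA they touch, the protein is pulled down after partial RNA digestion, and the attached RNA is sequenced. The cells were IMR90, primary human lung fibroblasts labelled WT in genotype in all groups, either untreated and proliferating or treated with ICM, which the labels give as inducing senescence, a lasting arrest of cell division. Each condition had 2 libraries made with an antibody against CTCF and 2 input libraries made without antibody. The labels give no time or dose of ICM.

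Each condition was represented by 1 list of peaks normalised to input, with no value per replicate and no read depth. No SD and no test between conditions could be had. The proliferating list held 147 peaks, or 117 sites after same-strand peaks within 50 nt were merged, and the senescent list held 572 peaks, or 286 sites. Of 9 fibroblast marker genes, 4 had a proliferating and 1 a senescent peak, while 0 of 8 markers of epithelial, blood and endothelial cells had a peak in either list. Among all annotated protein-coding genes, 0.304% had a proliferating and 1.22% a senescent peak, so 0 of 8 is near what these shares give. A peak is not an expression level. All positions are on build hg38, and gene spans are those of RefSeq on GRCh38.p14.

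The 7SK RNA is a short nuclear RNA made by RNA polymerase III. With the proteins LARP7 and MEPCE it forms a particle that, through HEXIM1 or HEXIM2, holds the elongation factor P-TEFb (CDK9 with cyclin T) inactive, and HEXIM1 binds a hairpin at the 5′ end of the RNA. The 5S RNA is a component of the large ribosomal subunit, is also made by RNA polymerase III from a promoter inside its gene, and is bound by the ribosomal proteins RPL5 and RPL11. Both have many pseudogenes, copies scattered through the genome that resemble the functional RNA. How the authors placed reads that match several copies was not given in the sources used here. A peak in a pseudogene is therefore an uncertain assignment to that copy, since reads of a near-identical copy could be placed there.

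The copies were divided between the conditions without overlap. RN7SK, RN7SKP90, RN7SKP255, RN7SKP148, RNA5SP145, RNA5SP149 and RNA5SP242 had proliferating peaks alone, and RNA5SP387 and RNA5SP282 had senescent peaks alone. All 4 members of the 7SK family were thus listed in proliferating cells and none in senescent cells, whereas the 5 copies of 5S were divided 3 to 2. The 7 proliferating sites made up 5.98% of the sites of that list (exact 95% binomial interval 2.44% to 11.9%, counting error only), and the 2 senescent sites 0.699% (0.0848% to 2.50%). The copies were chosen by their peaks and each condition had 1 list, so these intervals do not compare the conditions. In 0 of the 9 copies did a site of one list overlap a site of the other on the same strand. Over the whole lists, 19.7% of proliferating and 8.04% of senescent sites did so, and 7 and 2 sites are too few to set against these shares. The listed sites need not mean a loss or gain of binding, because the lowest signal values listed were 3.003 and 3.005 and weaker sites would be missing.

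**Figure D1:**
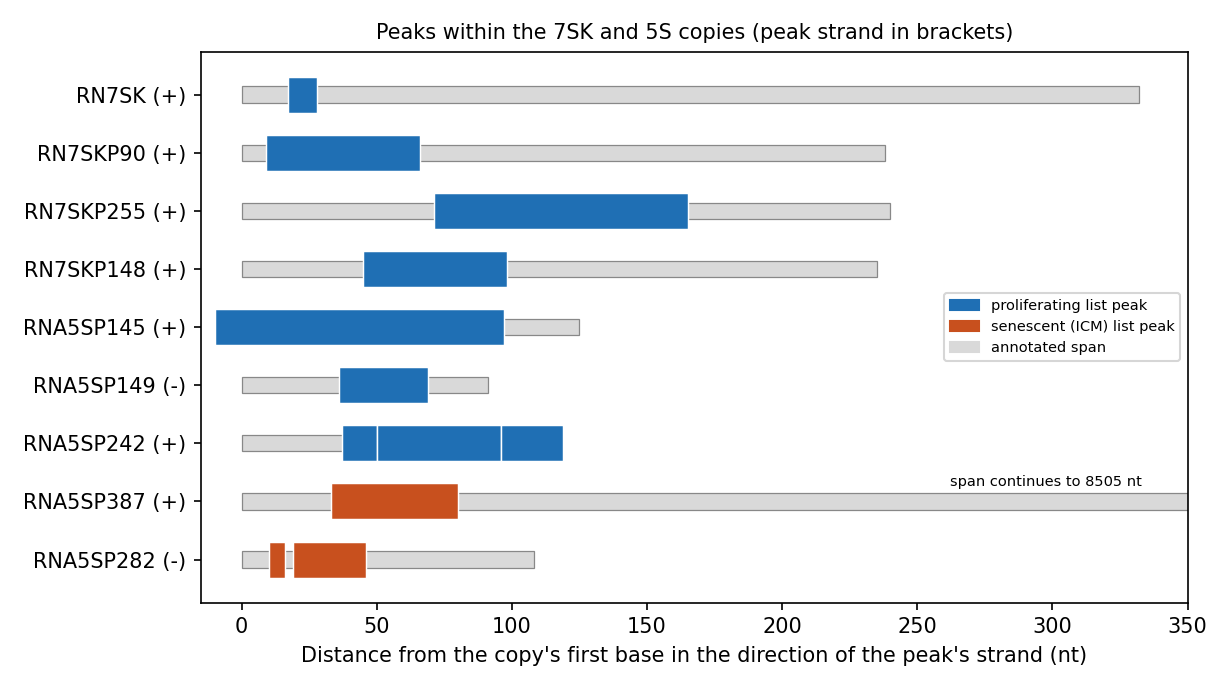
Position of each listed peak (coloured bars, blue for the proliferating and orange for the senescent list) within the annotated span of its copy (grey), in nt from the first base of the copy in the direction of the peak's strand. The RN7SK peak is the narrowest of the proliferating peaks shown at 11 nt and lies near the start, and the span of RNA5SP387 runs to 8505 nt, beyond the axis.

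RN7SK itself (chromosome 6, 52995620 to 52995951, 332 nt) carried 1 proliferating peak, of 11 nt, at 52995637 to 52995647 on the plus strand. It covered 3.31% of the gene, at bases 18 to 28 counted from the lower coordinate. The tables used here give no strand for RN7SK. From general knowledge the gene is transcribed from the plus strand, in which case these bases lie close to the 5′ end of the RNA. No listed peak lay in the rest of the gene. The authors' signal value, a score normalised to input on a scale that was not stated, was 4.07, and ranked 46 of 147 peaks. The authors' -log10 p-value against input was 400, the highest value that the list gives, a ceiling reached by 8.84% of proliferating peaks (13 of 147). The other 12 ceiling peaks lay in the snoRNA genes SNORA74A and SNORD3A, in RNU11, the gene of the U11 spliceosomal RNA, and in COL1A1, a collagen gene. RN7SK was sixth among the 13 by signal value, just below the highest RNU11 peak at 4.12 and well below the 4 SNORA74A peaks, of which the lowest had 6.87. RN7SK lay in no other annotated gene, and 336 nt from GSTA4, a gene of glutathione metabolism. The nearest senescent peak lay 3615912 nt away.

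The 3 pseudogenes of 7SK resembled each other in length and differed from RN7SK in their values. RN7SKP90 (chromosome 11, 16842253 to 16842490), inside the protein-coding gene PLEKHA7, had a peak of 57 nt at bases 10 to 66 of the copy with a signal value of 4.87 and a -log10 p-value of 6.40. RN7SKP148 (chromosome 5, 175628189 to 175628423) had a peak of 53 nt at bases 46 to 98 with a signal value of 4.15 and a -log10 p-value of 6.85. RN7SKP255 (chromosome 14, 89712511 to 89712750) had a peak of 94 nt at bases 72 to 165 with a signal value of 3.16 and a -log10 p-value of 10.6. RN7SKP90 and RN7SKP148 had a higher signal value than RN7SK, and all 3 had a far lower -log10 p-value. RN7SKP90 ranked 13 of 147 peaks by signal value but 115 by p-value, while RN7SKP148 ranked 40 and 107. RN7SKP255 went the other way, at 117 by signal value and 74 by p-value.

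These copies were 238, 235 and 240 nt long. Among the 293 annotated 7SK pseudogenes the median length was 280 nt and the lower quartile 240 nt, so all 3 were at or below the lower quartile and all 3 were shorter than RN7SK. Positions here are counted from the first base of the copy in the direction of the peak's strand, because the gene table gives no strand for RN7SK or the pseudogenes. Counted so, all 4 sites of the 7SK family had their centre in the first 50% of the copy, between 6.91% and 49.2% of its length. In the 5S family, RNA5SP387 left out, 2 of 4 sites did, with centres between 26.1% and 66.0%, which makes 6 of 8 over both families. An even spread of centres would put 50% there, and with 8 sites this was not tested. The RN7SKP255 centre, at 49.2%, lay close to the cut. The 7SK family sites did not fall on one shared stretch. The RN7SKP90 peak, at bases 10 to 66, spanned the numbers 18 to 28 of the RN7SK peak, while the RN7SKP148 and RN7SKP255 peaks began at bases 46 and 72. Whether equal numbers mark equal bases of the RNA is unknown, since these pseudogenes are shorter than the gene and were not aligned to it.

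The sites in the 3 proliferating 5S copies covered 36.3% to 77.6% of the copy, against 3.31% to 39.2% in the 7SK family. The senescent RNA5SP282 site covered 33.3%. These proliferating 5S copies were also shorter, at 91 to 125 nt against 235 to 332 nt. The widths of the sites overlapped, at 33 to 107 nt against 11 to 94 nt. RNA5SP145 (chromosome 3, 151188099 to 151188223), inside MED12L, a gene related to a subunit of the Mediator complex, had 1 peak of 107 nt on the plus strand that began 10 nt before the copy and covered 77.6% of it. Its signal value was 4.64, with a -log10 p-value of 5.61. RNA5SP149 (chromosome 3, 180161887 to 180161977) had 1 peak of 33 nt on the minus strand, with a signal value of 3.82 and a -log10 p-value of 45.4, the highest of the pseudogenes. As in the 7SK family, signal value and p-value ranked these copies differently: RNA5SP145 was at 16 of 147 by signal value and 122 by p-value, RNA5SP149 at 60 and 17.

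RNA5SP242 (chromosome 7, 128697439 to 128697556), inside the protein-coding gene GARIN1A, held a site of 3 abutting peaks on the plus strand that together covered bases 38 to 119, reaching 1 nt past the end of the copy. Its signal values were 3.86, 3.52 and 3.48 from the first to the last peak, and the -log10 p-values 17.4, 16.6 and 9.44. Both values were thus lower in each successive peak along the strand. A second 5S pseudogene, RNA5SP243, lies 153 nt beyond the last peak and held no listed peak. It is the copy nearest to a peak without overlapping one. The next such copy, RN7SKP29, was 9830 nt from a senescent peak, so no other copy was close to being included.

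In the senescent list, RNA5SP282 (chromosome 9, 34206134 to 34206241), inside UBAP1, which encodes a subunit of the ESCRT sorting machinery, had 2 peaks of 27 and 6 nt on the minus strand, separated by 3 nt. Together they lay at bases 11 to 46 counted along the minus strand. Both had the same signal value of 3.88 and the same -log10 p-value of 11.4. Equal values in neighbouring peaks were found in 21 of 286 neighbouring pairs of the senescent list (7.34%) and 2 of 30 of the proliferating list (6.67%), and most of these pairs abutted. RNA5SP282 is 1 of 2 senescent pairs with equal values and a gap between the peaks, and the proliferating list had 1 such pair. RNA5SP387 (chromosome 14), inside FLVCR2, which encodes a membrane transporter, had 1 peak of 47 nt at 75604206 to 75604252 on the plus strand, with a signal value of 4.98 and a -log10 p-value of 9.88. None of the 3 senescent peaks was at the p-value ceiling, which 6.29% of all senescent peaks reached.

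The annotated span of RNA5SP387, 75604173 to 75612677, is 8505 nt, against a median of 115 nt for the 510 annotated 5S pseudogenes and 316 nt for the next longest. Its peak lay at bases 34 to 80 of that span, within the length that a full 5S copy would take up. This membership rests on the RefSeq span, and without this copy the senescent list held 1 site. The peak ended 1288 nt before the second of the 2 starts that the promoter table gives for FLVCR2.

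**Figure D2:**
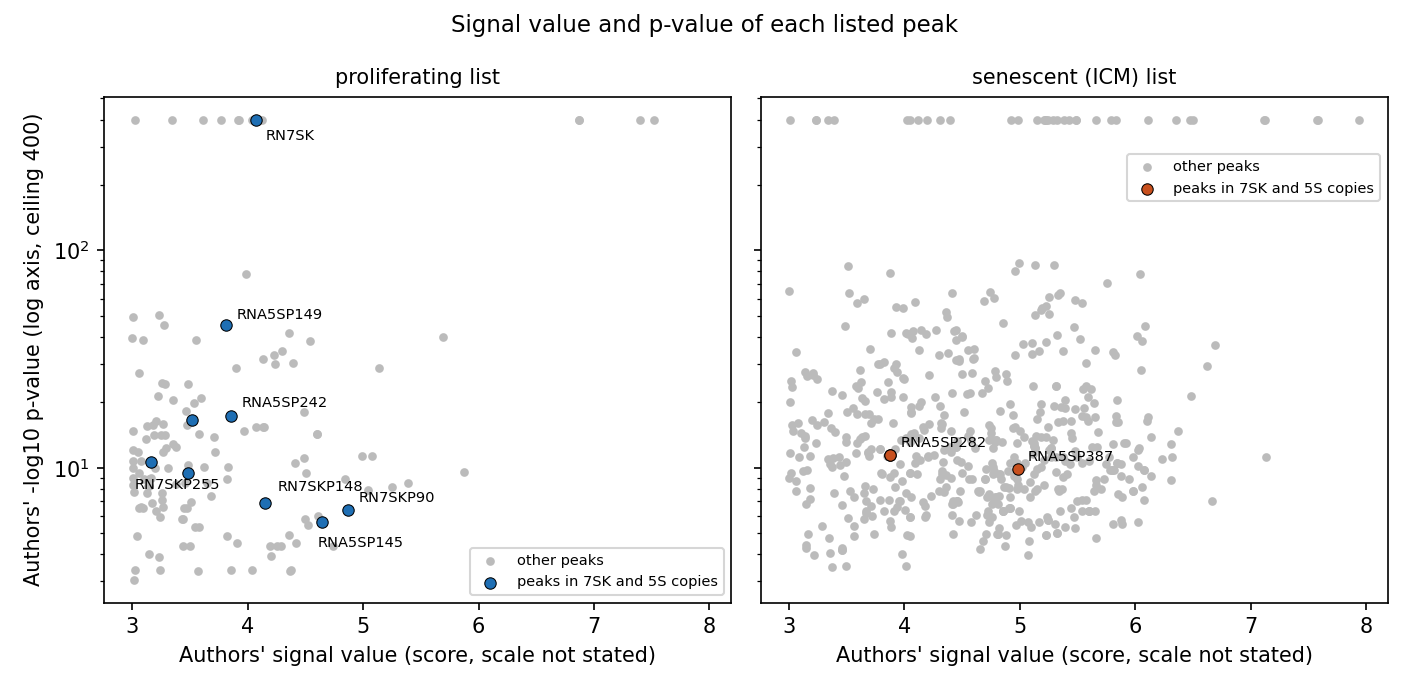
Authors' signal value (horizontal axis, a score) against the authors' -log10 p-value (vertical axis, logarithmic, ceiling 400) for each listed peak, with peaks in the 7SK and 5S copies coloured and all others grey, in the proliferating list (left) and the senescent list (right). RN7SK sits at the ceiling with a signal value of 4.07, while RN7SKP90 and RNA5SP145 have higher signal values and -log10 p-values of 6.40 and 5.61; the 2 RNA5SP282 peaks have equal values and lie on one point.

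The standing of the peaks was described within each list. Of the 9 proliferating peaks, 6 lay above that list's median signal value of 3.54 and 4 above its median -log10 p-value of 10.6. Their signal values ranged from 3.16 to 4.87 with a median of 3.86. Of the 3 senescent peaks, 1 lay above the median signal value of 4.71 of its list and 0 above the median -log10 p-value of 12.3. By site, RN7SKP90 ranked 8 of 117 in the proliferating list, while the highest senescent site, RNA5SP387, ranked 121 of 286. With so few peaks, of which 2 of the 3 senescent ones are the equal-valued pair of RNA5SP282, these counts do not tell the conditions apart, and signal values were not compared between the lists.

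The position of the copies relative to other genes was not used to choose them. A protein-coding gene overlapped 5 of the 9 copies (55.6%), near the 44.5% (365) of all 821 annotated 7SK and 5S copies. None of the 5 host genes, PLEKHA7, MED12L, GARIN1A, FLVCR2 and UBAP1, held a peak of either list outside its pseudogene. GARIN1A, for example, spans 37538 nt and MED12L 350990 nt, with peaks only at the 5S copy. Among all annotated protein-coding genes, 0.304% had a proliferating and 1.22% a senescent peak. A count of 0 of 5 hosts with a further peak is near what these shares give. The other 4 copies, RN7SK, RN7SKP148, RN7SKP255 and RNA5SP149, overlapped no other annotated gene, and the 3 pseudogenes among them lay 29648, 81919 and 124950 nt from the nearest protein-coding gene (HRH2, EFCAB11 and PEX5L). Their 4 peaks were the only proliferating peaks of the 147 without a gene other than a 7SK or 5S copy. The senescent list had 5 peaks without such a gene, and 0 of these were in 7SK or 5S copies. Whether sites in host genes were exonic or intronic was not analysed here.

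The strand of the host was known for 4 of the 5 host genes, through the RefSeq promoter table, and was plus in each. The peaks in RNA5SP145, RNA5SP242 and RNA5SP387 lay on the strand of the host. The 2 peaks of RNA5SP282 lay on the minus strand, opposite to UBAP1. This was uncommon in the lists: where all overlapping protein-coding genes had a known and equal strand, 100% of proliferating peaks (93 of 93) and 99.1% of senescent peaks (424 of 428) lay on the strand of the gene. The 4 exceptions formed 2 sites, RNA5SP282 and a site in PSMD14 at chromosome 2, 161340947 to 161341038, which also overlapped the pseudogene MXRA7P1. The strand of PLEKHA7 was not in the table. Across the 9 sites, 7 lay on the plus and 2 on the minus strand.

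Beyond the 9 members, no annotated 7SK or 5S copy had a listed peak, which follows from how the members were chosen. Of the 294 annotated members of the 7SK family, 4 had a proliferating peak (1.36%) and 0 a senescent one. Of the 527 members of the 5S family, 3 had a proliferating (0.569%) and 2 a senescent peak (0.380%), and the 17 functional 5S genes had none. Among all 59792 annotated genes, 0.154% had a proliferating and 0.483% a senescent peak. The proliferating shares of both families were above the first of these, and the senescent shares below the second. A count of 0 of 17 functional genes is near what they give. Since the placement of reads that match several copies is unknown, a functional gene without a listed peak need not lack bound RNA. For comparison, 7 other families of small RNAs with many pseudogenes were counted in the same way: 7SL, the RNA of the signal recognition particle, the spliceosomal RNAs U1, U2, U4 and U6, the histone-processing RNA U7, and the Y RNAs. Of their 2498 annotated copies, functional genes included, 0 had a peak in either list. Small RNA genes outside these families did have peaks, among them SNORA74A, SNORD3A and RNU11 in the proliferating and VTRNA2-1 in the senescent list. These examples need not be in 1 list alone. A senescent peak at chromosome 5, 139278833 to 139278836, overlapped in position the proliferating SNORA74A peak at 139278832 to 139278835. The 7SK and 5S families are thus not the only small RNAs with listed peaks. The largest of these families, U6 with 1282 and 7SL with 687 copies, each exceed 5S in number. The difference between families was not tested, since the 7SK and 5S copies were chosen for their peaks and the other families were named after their values were seen.

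**Figure D3:**
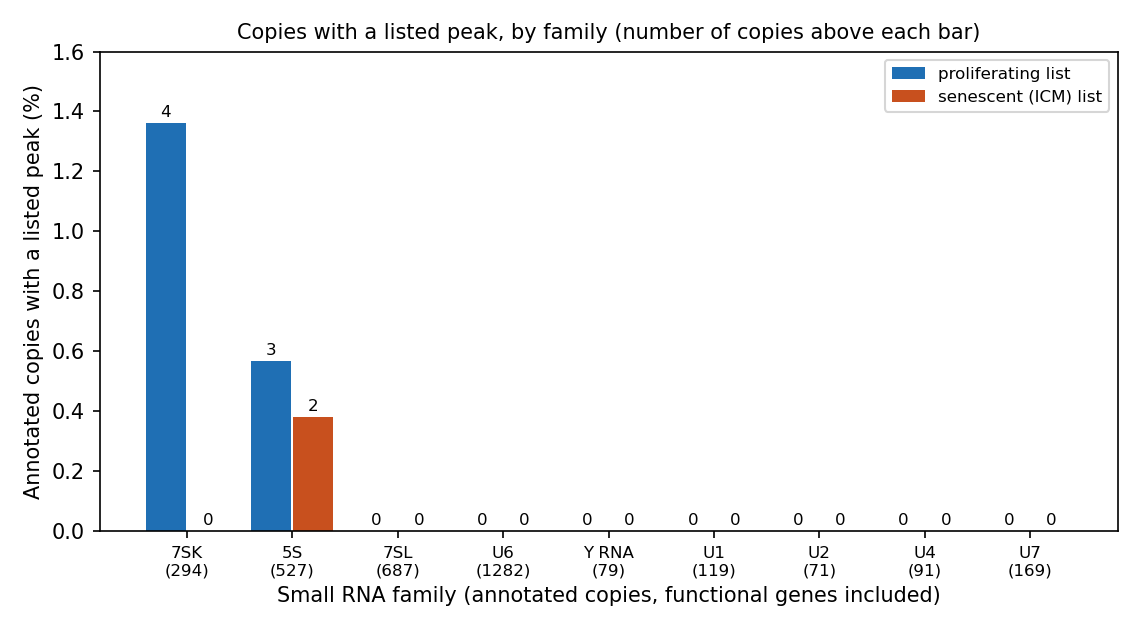
Share of annotated copies with a listed peak, in percent (bars from 0), for 9 small RNA families in the proliferating (blue) and the senescent list (orange), with the number of copies with a peak above each bar and the number annotated in brackets. Among the families shown, bars above 0 appear for 7SK (4 proliferating copies) and 5S (3 proliferating and 2 senescent copies). Small RNAs outside these families that had peaks, such as SNORA74A, SNORD3A and RNU11, are not shown.

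The proteins that act with these RNAs were looked up by the peaks in their own transcripts. Of all 59792 annotated genes, 0.154% had a proliferating and 0.483% a senescent peak, and with lists of 9 to 20 genes a count of 0 or 1 is not set apart from these shares or from those of protein-coding genes. Of 19 genes of the 7SK particle, P-TEFb and its partners, 0 had a proliferating peak and 1 a senescent peak. That gene was ELL2 (chromosome 5, 95885098 to 95961851), which encodes an elongation factor of the complex that P-TEFb joins on release from 7SK. ELL2 held 7 senescent peaks in 3 sites between 95906688 and 95960559 on the minus strand, with signal values from 3.58 to 5.30 and -log10 p-values from 5.81 to 26.9. HEXIM1, LARP7, MEPCE and CDK9 had no listed peak. Of 9 genes for 5S partners and 5S transcription, among them RPL5, RPL11 and GTF3A, 0 had a peak in either list. Of 20 other RNA polymerase III transcripts, 0 had a proliferating and 1 a senescent peak: VTRNA2-1 (chromosome 5, 136080491 to 136080598), annotated as a vault RNA, with 2 abutting peaks at 136080504 to 136080547 and signal values of 3.52 and 3.65. Its -log10 p-values of 63.7 and 59.5 exceeded those of the senescent 5S copies.

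The sites lay far from other listed peaks. The spacing of the other listed sites was not computed, so this cannot be called particular to these copies. The nearest other peak of the same list was at least 141196 nt away from each of the 9 sites, and the nearest peak of the other list at least 151500 nt, on either strand, both at RNA5SP242.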

How the data were processed

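The authors deposited 1 narrowPeak list per condition, on hg38 and normalised to input per the file headers, whose names refer to both replicates. That a list joins its 2 eCLIP libraries is assumed from that name. Column 7 holds the authors' signal value, a score of unstated scale, and column 8 the deposited -log10 p-value, capped at 400. The aligner, caller, thresholds and handling of reads that match several copies were not given in the sources used here, and the read depth is unknown, so no precision per peak can be stated.

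Peaks were assigned to 59792 RefSeq genes (GRCh38.p14) by at least 1 shared base, and same-strand peaks within 50 nt were merged, with Python 3.11.15, pandas 2.3.3 and SciPy 1.17.1. Merging and overlap were tested on simulated data. The members, the gene lists and the comparison families were chosen with earlier results of these data known. Named were the 9 members, genes overlapping them, other 7SK or 5S copies with a peak, and listed genes with a peak. The other small RNA families, RNA5SP243, RN7SKP29, PSMD14 and the genes with peaks at the p-value ceiling were named after their values were seen. None of the 9 members had an entry in the RefSeq sequence tables. Exact binomial intervals cover counting error only.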

Additional observations from a re-analysis of the deposited data

How the results depend on the processing

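Over 10 results, 36 alternatives were computed, 4 of them chosen after seeing the data. Of the 36, 28 kept the value within its interval or within 1.5 times the count. Many of the 28 could not have changed the value, as given below, so 28 is not a measure of stability. The count of sites and of copies depended on the threshold. At a minimum -log10 p-value of 10, 4 of the 7 proliferating and 1 of the 2 senescent sites and copies were left, and keeping the 50% with the highest signal values in each list left 6 and 1. Leaving out RNA5SP387 because of its span left 1 senescent site and copy. No copy had overlapping sites of both lists under the 3 alternatives tried, but these 3 did not test that count of 0. Each site lay at least 151500 nt from the nearest peak of the other list, so 0 was fixed under all 3. All 3 are among the 28 alternatives that kept the value, and others of the 28 were fixed too. RNA5SP387 had no proliferating peak, so leaving it out could not change the proliferating counts. At most 10 nt of a peak lay outside its copy, so requiring 50% of the peak, or its middle base, inside changed nothing. The nearest copy without overlap lay 153 nt from a peak, beyond the 50 nt by which spans were widened. Other peaks of the same list lay at least 141196 nt from each site, beyond the 100 nt merge. No paired analysis was possible because a list gives 1 value per peak for both replicates, so leaving out a replicate was not run either. The strand relative to the pseudogene and alignment to the functional RNA were also not run, since strand and sequence of the copies were not used here. Unknown depth limits any reading of the division between the lists.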
